A study of Mus musculus with 6 samples.

Results

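The genes described here encode the cytosolic translation initiation factors eIF1 to eIF5 and elongation factors eEF1 and eEF2 of the mouse, together with enzymes that carry an eEF name because they act on those factors. Members were all protein-coding rows of the gene table whose symbol begins with Eif1 to Eif5 or with Eef1 or Eef2. Symbols beginning with Eif2ak or Eif4ebp, and Eif2s3y, were left out by the rule. This gave 63 members among 46452 rows, of which 22186 are protein-coding. A member was tested where its mean level over the 6 libraries was at least 1 FPKM (sequenced fragments divided by gene length in kilobases and by a depth factor of the library), and 58 of the 63 passed. Of the other 5, Eif4e1b (an egg-specific cap-binding paralogue), Eef1akmt4-ece2 and Eif1-ps3 were listed at 0 in every library. Eif4a3l1 was listed at 0 in 5 libraries, and Eef1akmt3, a methyltransferase of eEF1A, reached at most 0.274 FPKM.

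Translation of most messages begins when eIF2, loaded with GTP and the initiator tRNA, joins the small ribosomal subunit with eIF1, eIF1A, eIF3 and eIF5, and the complex is recruited to the capped end of the message by eIF4F, which consists of the cap-binding protein eIF4E, the scaffold eIF4G and the RNA helicase eIF4A. eIF2 leaves with GDP and is recharged by the exchange factor eIF2B, a step that is blocked when stress kinases phosphorylate the alpha subunit of eIF2. Elongation then runs on eEF1A, which brings each aminoacyl-tRNA, and eEF2, which moves the ribosome along, and striated muscle is known for changing from the eEF1A1 to the eEF1A2 form after birth.

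The study sequenced poly(A)-selected RNA from hearts of 10-day-old mice in 2 groups, with 3 independent biological replicates in each. One group was Nat10 flox/flox, which carries Nat10 alleles flanked by recombination sites, and the other Nat10-CKO, a conditional knockout of Nat10, the RNA acetyltransferase that makes N4-acetylcytidine. The labels give no treatment and do not name the Cre driver, the deleted exons or the strain, and they do not say how many animals went into a library. The comparison asks how transcript levels differ in hearts labelled as lacking Nat10. Nat10 itself measured 3.75, 4.18 and 4.71 FPKM in Nat10 flox/flox, and the libraries labelled Nat10-CKO had 8.28, 8.66 and 10.2. It was higher in all 3 of the latter, 2.14-fold, with an adjusted p of 0.00142 by limma. A level summed over the whole gene does not show whether particular exons are missing, so the label could not be checked from it, and each direction below refers to the label.

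The libraries held between 31155521 and 38051266 reads in genes. Markers of cardiomyocytes were abundant in all 6 libraries, with a summed level of 16520 to 20130 FPKM in Nat10 flox/flox and 9456 to 16450 in Nat10-CKO. Of these 6 markers 2 were lower, Tnni3 (2.97-fold, adjusted p 0.00211) and Pln (3.54-fold, adjusted p 0.00304), and 4 did not overlap between the groups, all lower in Nat10-CKO. Of 7 skeletal muscle markers, Myh1, Myh2, Myh4 and Myf6 were near 0 and Tnnt3 was at most 1.503 FPKM. Acta1 was higher (mean 75.5 against 2138 FPKM) and Ckm lower (840 against 215). Both spread widely within Nat10-CKO, with Acta1 at 201, 3819 and 2393 FPKM and Ckm at 43.6, 292 and 308.5. Replicate 1 was the lowest for both. Of 5 smooth muscle and pericyte markers, Acta2 (69.5 against 29.6) and Rgs5 (134 against 69.8) were lower, Myh11 and Pdgfrb were not called, and Tagln was near 0. All 5 endothelial markers were lower in Nat10-CKO (summed 294 to 345 against 165 to 176 FPKM), as were the 4 tested of 5 erythroid markers (667 to 1722 against 407 to 529.6), whereas none of the 6 fibroblast or 5 macrophage markers was called. The fibroblast sum was 319 to 358 FPKM in Nat10 flox/flox and 346 to 615 in Nat10-CKO, where replicate 3 was the lowest. Of the fibroblast markers, 2 were higher and 1 was lower without overlap. Mitochondrially encoded genes took 16.6% to 18.3% of the reads in Nat10 flox/flox and 7.56% to 9.26% in Nat10-CKO. A pair of libraries stood apart. Nat10 flox/flox replicate 1 had a summed level of neuronal markers of 481.8 FPKM against 8.38 to 42.8 in the other 5, and Nat10-CKO replicate 1 had the lowest cardiomyocyte sum. The part of these differences in the results below was not tested, and in whole hearts fewer cells of a type and less RNA per cell cannot be told apart.

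Most initiation factor genes were higher in Nat10-CKO. Most elongation factor genes were not called, and neither were 7140 of the 11996 genes tested. Over all members tested, 31 of 58 were higher, 2 were lower (Eif4a2 and Eif4e3) and 25 were not called at an adjusted p under 0.05 (limma, two-sided, adjusted over 11996 genes). Over all genes tested 40.5% were called, 24.4% higher and 16.0% lower. The median log2 fold change of the members was 0.48 on the log2(FPKM + 1) scale, beside 0.03 for all genes tested. The 3 values of a group did not overlap those of the other for 35 members that were higher and 6 that were lower, beside 31.5% and 24.4% of all genes. Among the 43 tested genes counted as initiation factors by their symbol, 26 were higher and 2 lower, with a median log2 fold change of 0.63. The higher ones include Eif1ad, Eif4e2, Eif4enif1 and Eif4a3, which are described below with other roles. Among the 9 tested genes of eIF5A, eEF1A, eEF1B and eEF2 only Eif5a and the eEF1B relative Eef1e1 were higher. None was lower in this fit, with a median of -0.10, but Eef1a2, Eef1b2 and Eef1g were lower in some alternatives given below. Of the 31 higher members, 27 differed by at least 1.5-fold, 18 by at least 2-fold, and Eif3b and Eef1e1 by at least 3-fold. Without both libraries that stood apart, 29 members were higher and 5 lower of 57 tested, and 30 of the 33 called members kept their call.

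**Figure D1:**
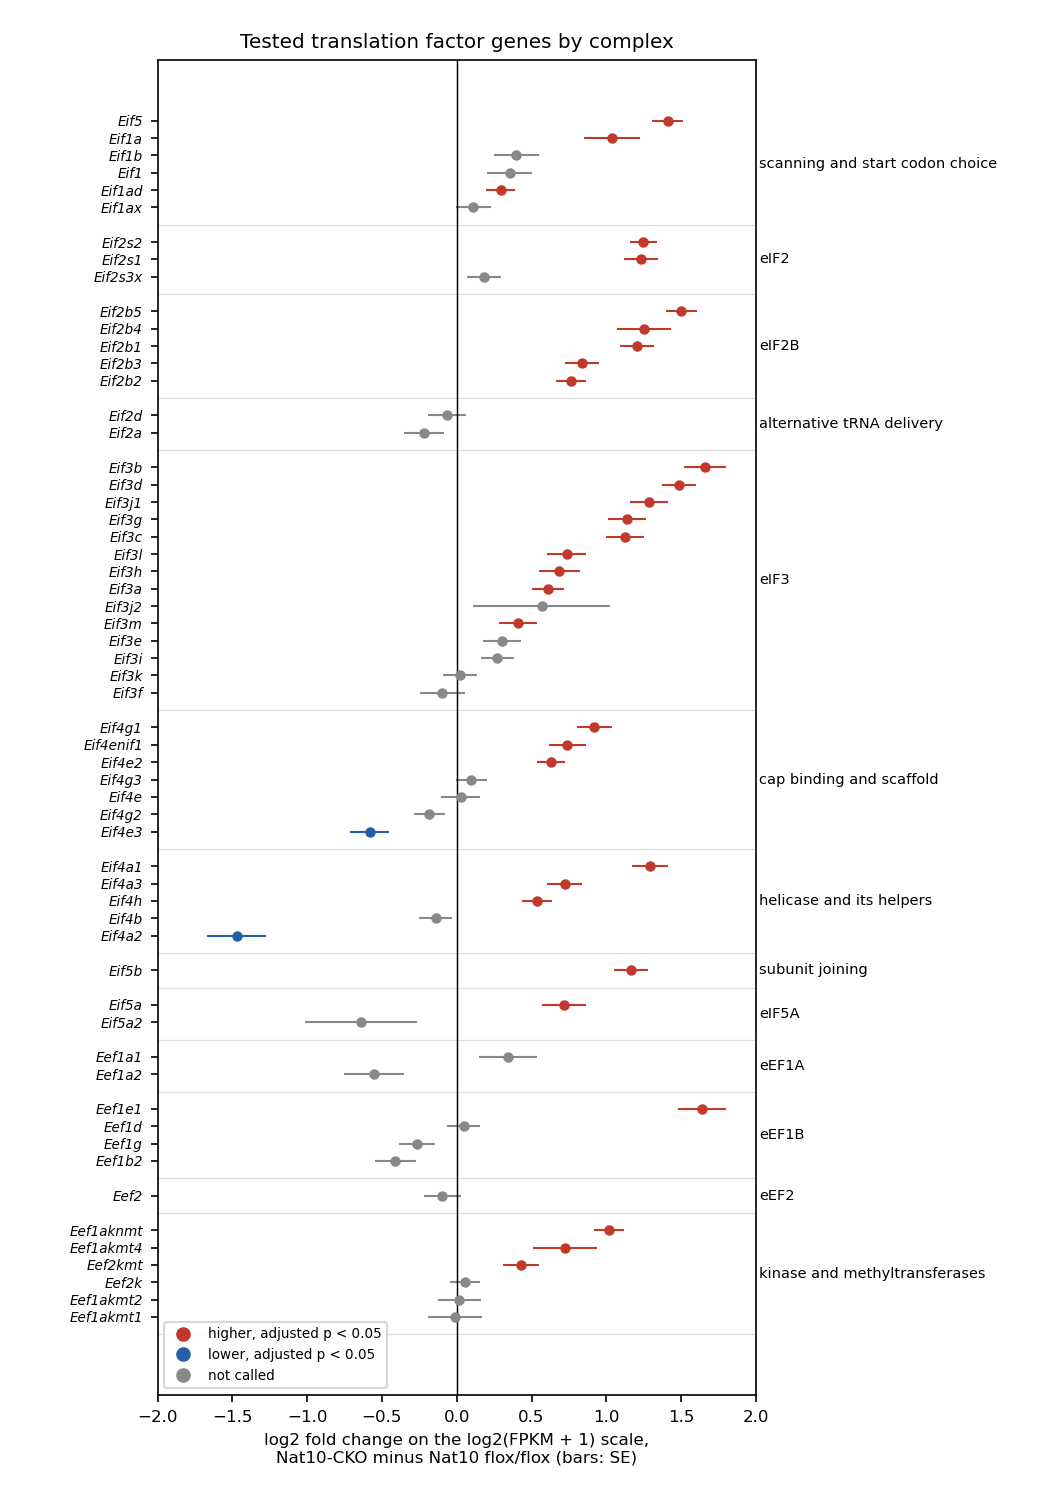
Log2 fold change of each of the 58 tested members, Nat10-CKO minus Nat10 flox/flox, on the log2(FPKM + 1) scale (horizontal axis, bars are the standard error of the limma fit), grouped by factor complex. The 31 higher members lie right of 0 and most belong to initiation complexes; Eif4a2 and Eif4e3 are the 2 lower ones.

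The genes of eIF2 and eIF2B were higher almost throughout. eIF2 alpha, the subunit that stress kinases phosphorylate, is encoded by Eif2s1, which was at 11.0, 13.1 and 13.0 FPKM in Nat10 flox/flox and 32.8, 27.9 and 30.2 in Nat10-CKO. Its lowest Nat10-CKO library was above all Nat10 flox/flox libraries, and the difference was 2.45-fold (log2 fold change 1.23, SE 0.12, adjusted p 0.000581). Eif2s2, the beta subunit, was at 24.7, 25.9 and 26.3 against 63.9, 60.8 and 61.8 FPKM, again without overlap (2.43-fold, adjusted p 0.000335). Eif2s3x, the X-linked gene of the gamma subunit that holds GTP and tRNA, did not follow them. It was at 14.8, 14.1 and 16.3 against 19.2, 16.8 and 15.8 FPKM, with overlapping groups (log2 fold change 0.18, SE 0.11, adjusted p 0.236).

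All 5 genes of the exchange factor eIF2B were higher. Eif2b5, the catalytic epsilon subunit, was at 20.1, 21.03 and 21.9 FPKM in Nat10 flox/flox and 66.3, 57.4 and 60.0 in Nat10-CKO. The groups lay far apart, and the difference of 2.92-fold had the smallest adjusted p of any member (log2 fold change 1.5, SE 0.10, adjusted p 0.000274). Eif2b1, the alpha subunit of the regulatory part that senses phosphorylated eIF2, was at 8.37, 8.35 and 8.32 against 20.7, 18.0 and 23.2 FPKM (2.47-fold, adjusted p 0.000588). Eif2b2, the beta subunit, was at 17.4, 16.5 and 16.9 against 32.1, 27.0 and 29.4 FPKM (1.74-fold, adjusted p 0.00185). In both genes the groups did not overlap. Eif2b4, the delta subunit, differed 2.49-fold but spread more widely within Nat10-CKO, from 42.3 to 68.5 FPKM. Eif2b3, the gamma subunit and the least abundant of the 5, differed 2.10-fold (adjusted p 0.00207). The summed level of the 5 genes was 70.1 to 72.5 FPKM in Nat10 flox/flox and 166 to 186 in Nat10-CKO. Eif2a and Eif2d, whose products can deliver initiator tRNA without eIF2, were not called, with log2 fold changes of -0.22 and -0.06.

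**Figure D2:**
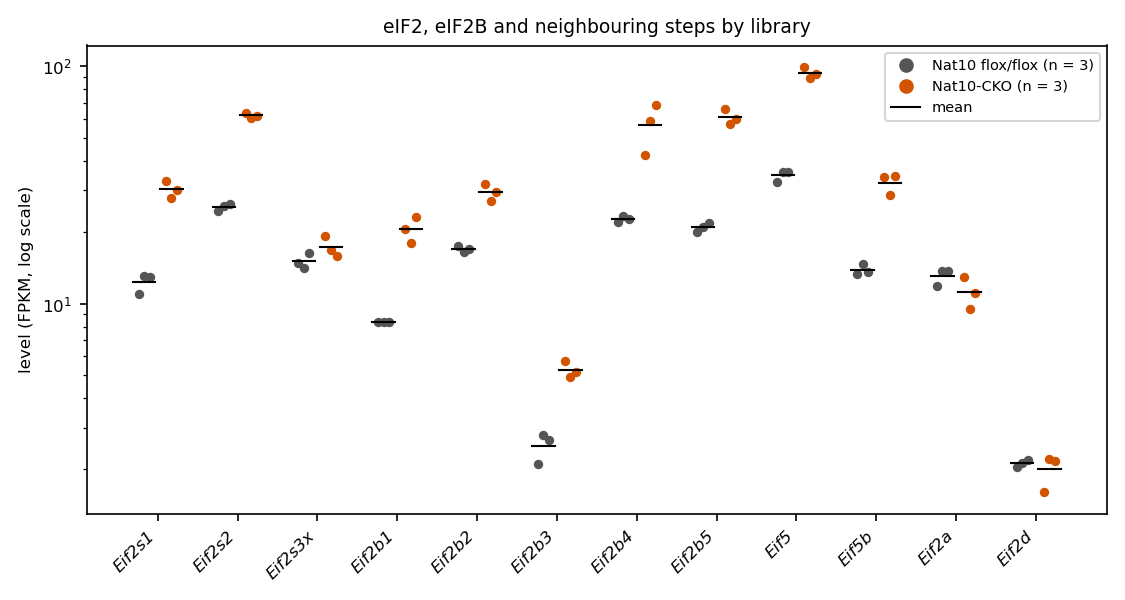
Level in FPKM (vertical axis, log scale) of the eIF2 and eIF2B genes, Eif5, Eif5b, Eif2a and Eif2d in each library; points are the 3 libraries of a group and lines the group means. The groups do not overlap for Eif2s1, Eif2s2, the 5 eIF2B genes, Eif5 and Eif5b, and overlap for Eif2s3x, Eif2a and Eif2d.

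Of the factors that act during scanning and start codon choice, 3 of 6 were higher. Eif5 encodes the GTPase activator of eIF2, and it was at 32.5, 35.7 and 36.0 FPKM in Nat10 flox/flox and 99.6, 89.1 and 93.2 in Nat10-CKO (2.71-fold, log2 fold change 1.41, SE 0.11, adjusted p 0.000335). All Nat10-CKO libraries were above all Nat10 flox/flox libraries. Eif1a, on chromosome 18, was at 7.23, 6.28 and 5.98 against 19.4, 12.8 and 11.8 FPKM (2.26-fold, adjusted p 0.00578). Its X-linked counterpart Eif1ax was at 12.2, 12.1 and 13.2 against 15.7, 12.1 and 13.2 FPKM, and these groups overlapped (adjusted p 0.479). The difference between the fold changes of these paralogues was not tested. Eif1, which guards start codon fidelity, was at 347, 332 and 341 against 517, 373 and 427 FPKM, without overlap but not called (adjusted p 0.109). Eif1b, its paralogue, was at 43.7, 31.3 and 31.2 against 46.1, 48.0 and 45.1 FPKM and was not called either (adjusted p 0.0774). The library with the neuronal markers was the highest of its group for Eif1b, and without it the adjusted p was 0.0163 (log2 fold change 0.56). Eif1ad, a ribosome maturation factor related to eIF1A, was at 9.95, 9.66 and 10.9 against 13.0, 11.9 and 13.2 FPKM (1.25-fold, adjusted p 0.0483), and its call was lost in 15 of 19 alternatives. Eif1ad overlaps Banf1 on the opposite strand, which was also higher, and whether the counting used strand is not stated. Eif5b, the GTPase that joins the ribosomal subunits, was at 13.4, 14.6 and 13.6 against 34.1, 28.6 and 34.4 FPKM, with no overlap (2.34-fold, adjusted p 0.000613).

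Of the 14 genes of eIF3, the large scaffold that holds the small subunit open for initiation, 9 were higher, none was lower and 5 were not called. The summed level was 651 to 722 FPKM across the Nat10 flox/flox libraries and 1100 to 1289 across the Nat10-CKO libraries. Eif3b, a core subunit, had the largest fold of the complex. It was at 43.7, 46.8 and 45.6 FPKM in Nat10 flox/flox and at 175, 130 and 135 in Nat10-CKO (3.23-fold, log2 fold change 1.66, SE 0.14, adjusted p 0.000451). Eif3d, which can itself bind the cap, was at 29.6, 33.5 and 35.3 against 98.3, 90.9 and 91.2 FPKM (2.85-fold, adjusted p 0.000336). Eif3j1, a loosely attached subunit, was at 19.1, 16.5 and 21.4 against 50.8, 43.7 and 47.6 FPKM (2.50-fold, adjusted p 0.000678). None of these 3 genes overlapped between the groups. Eif3c and Eif3g were 2.20-fold and 2.23-fold higher, and Eif3a, Eif3h and Eif3l, the first of them the backbone of the complex, were 1.54-fold to 1.68-fold higher. Eif3m was 1.34-fold higher (adjusted p 0.0400), a call lost in 12 of 19 alternatives. The subunit genes not called were Eif3e, Eif3f, Eif3i, Eif3k and Eif3j2, with Eif3e and Eif3i not overlapping between the groups (1.24-fold and 1.21-fold). Eif3j2, a near copy of Eif3j1 on chromosome 18, ranged from 1.18 to 7.60 FPKM, and reads could be split between the copies. Eif3f was at 85.6 to 97.2 FPKM in Nat10 flox/flox and 76.8 to 105 in Nat10-CKO, and Eif3k was at 47.7 to 53.8 and 46.6 to 55.9. The subunits were also ranked by mean FPKM within a group. Such ranks depend on the gene lengths behind FPKM, whose definition is not given. Among the 13 subunit genes other than Eif3j2, Eif3b moved from rank 9 to rank 2 and Eif3d from rank 12 to rank 5, while Eif3f moved from 2 to 6 and Eif3k from 7 to 12. Eif3h had the highest mean FPKM in both groups.

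**Figure D3:**
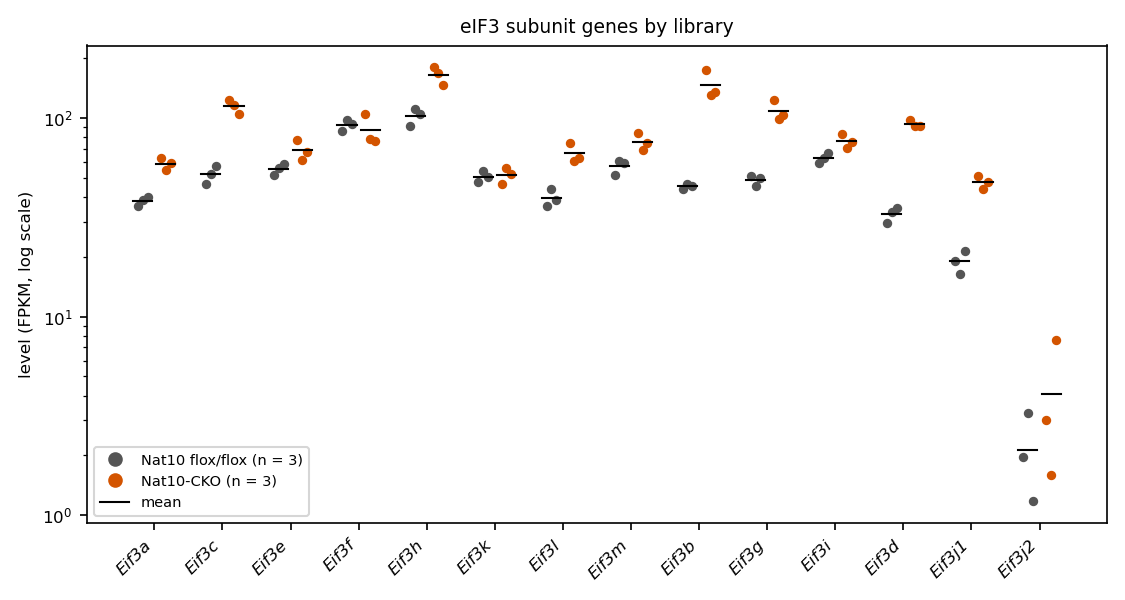
Level in FPKM (vertical axis, log scale) of the 14 eIF3 subunit genes in each library; points are the 3 libraries of a group and lines the group means. Eif3b, Eif3d and Eif3j1 show the widest gaps between the groups, and the groups overlap for Eif3f, Eif3k and Eif3j2.

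The cap-binding and scaffold genes were mixed, with 3 of 7 higher and 1 lower. Eif4e, the cap-binding subunit of eIF4F, was at 9.74, 11.9 and 11.4 FPKM in Nat10 flox/flox and 9.85, 11.2 and 12.7 in Nat10-CKO, a log2 fold change of 0.03 (SE 0.13, adjusted p 0.888). Eif4e2, a cap-binding paralogue known in translational repression, was at 5.78, 5.13 and 5.45 against 9.38, 8.47 and 9.11 FPKM (1.65-fold, adjusted p 0.00253). Eif4e3 went the other way, at 10.2, 13.8 and 12.1 against 6.82, 7.999 and 8.18 FPKM (1.57-fold lower, log2 fold change -0.58, SE 0.13, adjusted p 0.0137). The groups did not overlap for Eif4e2 and Eif4e3 and overlapped for Eif4e. Eif4enif1, which carries eIF4E into the nucleus and to processing bodies, was at 8.61, 9.74 and 9.77 against 18.4, 14.03 and 16.7 FPKM (1.75-fold, adjusted p 0.00442). Eif4g1, the main scaffold, was at 90.4, 99.4 and 107 against 178, 189 and 195 FPKM, every Nat10-CKO library being above every Nat10 flox/flox library (1.90-fold, log2 fold change 0.92, SE 0.12, adjusted p 0.00147). Eif4g2, a scaffold that lacks the eIF4E site, was at 116, 128 and 130 against 110, 108 and 111 FPKM and was not called (adjusted p 0.211). Eif4g3 was at 9.58, 9.35 and 9.26 against 11.2, 10.3 and 9.05 FPKM (adjusted p 0.477).

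The helicase paralogues went in opposite directions. Eif4a1, on chromosome 11 from 69557762 to 69563249 (GRCm39), was at 82.5, 86.1 and 92.3 FPKM in Nat10 flox/flox and 238, 202 and 204 in Nat10-CKO. It was higher in all 3 libraries of the latter (86.9 ± 4.99 against 215 ± 19.9 FPKM, SD, n = 3 each, 2.47-fold, limma adjusted p 0.000579). Eif4a2, on chromosome 16 from 22924846 to 22932882, was at 71.1, 69.5 and 71.4 against 17.9, 28.4 and 30.2 FPKM. It was the most strongly lowered member (2.77-fold lower, log2 fold change -1.47, SE 0.20, adjusted p 0.00188), and Nat10-CKO replicate 1 was the lowest library. In FPKM, Eif4a2 made up 44.9% ± 1.36 of the summed level of the pair in Nat10 flox/flox and 10.7% ± 3.25 in Nat10-CKO (SD, n = 3 each). The shares and the sum depend on the gene lengths behind FPKM, 4560 bases for Eif4a2 and 1880 for Eif4a1, whose definition is not given. They do not show which paralogue had more transcripts. The log2 ratio of the pair did not overlap between the groups, and its exact two-sided permutation p was 0.1, the smallest that 3 against 3 libraries allow. The summed level of the pair was 158 ± 5.39 and 240.2 ± 13.4 FPKM. Eif4a3, the exon junction complex helicase, was at 31.0, 36.4 and 34.0 against 53.8, 52.6 and 62.6 FPKM (1.67-fold, adjusted p 0.00410). Of the helicase cofactors Eif4h was higher (1.46-fold, adjusted p 0.00626) and Eif4b was not called (59.5 to 67.3 against 53.3 to 59.9 FPKM). The pseudogene Eif4a-ps4, a near copy from the same family, was 2.66-fold higher, and reads could be split between it and Eif4a1.

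Sequence just before the start of 3 genes is shown because they stand for different outcomes, Eif4a1 and Eif4g1 being higher and Eef2 not called. CACGTG, the palindromic E-box that MYC and related factors are known to bind, is in capitals. The sequences are 120 bases each, from RefSeq, clear of annotated exons, placed on GRCm39 at chr11:69563250-69563369 (minus strand, Eif4a1), chr16:20491326-20491445 (plus strand, Eif4g1) and chr10:81012345-81012464 (plus strand, Eef2).
Eif4a1: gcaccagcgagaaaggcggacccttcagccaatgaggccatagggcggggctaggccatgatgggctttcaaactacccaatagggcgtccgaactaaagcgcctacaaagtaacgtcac
Eif4g1: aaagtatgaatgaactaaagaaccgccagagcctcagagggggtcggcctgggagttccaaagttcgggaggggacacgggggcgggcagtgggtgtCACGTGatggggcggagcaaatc
Eef2: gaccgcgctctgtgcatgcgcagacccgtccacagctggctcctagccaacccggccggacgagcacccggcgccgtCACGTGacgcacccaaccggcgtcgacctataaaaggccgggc
The Eif4a1 stretch holds no complete CACGTG, but its RefSeq window of 250 bases before to 50 after the start holds 1, which does not lie wholly within the bases printed. These 3 genes were picked after the matches were known. In windows from 250 bases before to 50 after the start of the GENCODE canonical transcript, CACGTG was present for 6 of 30 higher members, 5 of 25 members not called and neither of the 2 lower ones, beside 10.3% of 10787 tested protein-coding genes. In RefSeq windows of the same length (GRCm38.p6), which were available for 49 members, it was present for 6 of 28 higher and 6 of 18 not called members, beside 10.5% of 8839 genes. The share of members with the motif was thus 18.3% or 26.5%, depending on the window, and it was no larger among higher members than among those not called. On both strands, CCGGAAG was present for 7 of 30 higher and 6 of 25 not called members in the GENCODE windows (15.6% of tested genes), and for 9 of 28 and 4 of 18 in the RefSeq windows (18.9%). TGATGNAA and the palindromic core of the NRF1 site were present for none of the higher members in either set and for 1 member not called in each, beside 2.4% and 1.8% of tested genes in the GENCODE windows and 2.2% and 2.1% in the RefSeq windows. These 4 motifs were all that were searched, and a match describes letters in a window only.

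Elongation factor genes were mostly not called, like most genes tested, although they included the most abundant members. Eef1a1 was at 703, 774 and 710 FPKM in Nat10 flox/flox and 1189, 891 and 749 in Nat10-CKO, with overlapping groups (729 ± 39.1 against 943 ± 224, SD, n = 3 each, limma adjusted p 0.197). Eef1a2, the muscle and neuron form, was at 177, 189.7 and 190.2 against 92.7, 146 and 148 FPKM. Its groups did not overlap, and it was not called (log2 fold change -0.55, SE 0.20, adjusted p 0.0651). Nat10-CKO replicate 1 was the highest library for Eef1a1 and the lowest for Eef1a2, and without it Eef1a2 was lower with an adjusted p of 0.0339 (log2 fold change -0.33). In FPKM, Eef1a2 made up 20.3% ± 0.736 of the pair in Nat10 flox/flox and 12.6% ± 4.82 in Nat10-CKO (SD, n = 3 each). The log2 ratio gave an exact two-sided permutation p of 0.1, the smallest possible. The shares depend on the gene lengths behind FPKM, 7980 bases for Eef1a2 and 1790 for Eef1a1, whose definition is not given. They do not show which form had more transcripts. Eef2, whose start is shown above, was at 570, 610 and 656 against 565, 582 and 566 FPKM (log2 fold change -0.10, SE 0.12, adjusted p 0.555).

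**Figure D4:**
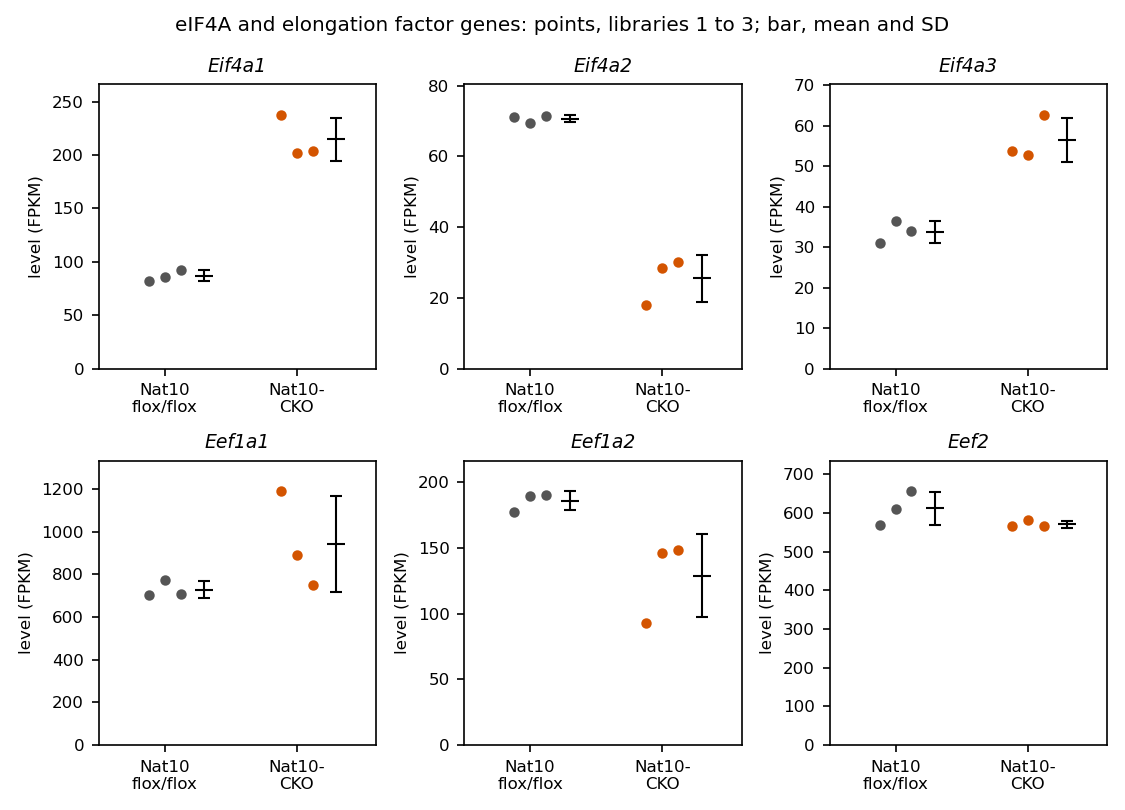
Level in FPKM (vertical axes, each from 0) of Eif4a1, Eif4a2, Eif4a3, Eef1a1, Eef1a2 and Eef2 by group; points are libraries 1 to 3, and the bar beside them is the mean and SD. Eif4a1 is higher and Eif4a2 lower in Nat10-CKO without overlap, Eef1a2 is lower without overlap but was not called, and Eef1a1 and Eef2 overlap.

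None of the subunit genes of the exchange complex eEF1B, which recharges eEF1A, was called (Eef1b2, Eef1d and Eef1g). Eef1e1, which was grouped with them, belongs to the tRNA synthetase complex and is related to eEF1B by sequence, and it was at 9.17, 6.29 and 5.88 FPKM in Nat10 flox/flox and 23.4, 24.6 and 23.8 in Nat10-CKO. This was the largest fold of any higher member (3.36-fold, log2 fold change 1.64, SE 0.16, adjusted p 0.000635). The structural and catalytic subunit genes Eef1g and Eef1b2 were below the Nat10 flox/flox libraries in all 3 Nat10-CKO libraries without being called (1.20-fold and 1.32-fold lower, adjusted p 0.114 and 0.0517). Without Nat10-CKO replicate 1, Eef1b2 was lower with an adjusted p of 0.00705. Eef1d overlapped between the groups (adjusted p 0.760). Eif5a, the hypusine-bearing factor that relieves stalled ribosomes, was at 111, 106 and 117 against 221, 172 and 163 FPKM (1.66-fold, adjusted p 0.00924). It overlaps Gps2 on the opposite strand, which had a mean of 15.9 FPKM in Nat10 flox/flox and 27.7 in Nat10-CKO. Eif5a2 was at 3.77, 0.968 and 0.857 against 0.983, 0.561 and 0.486 FPKM (adjusted p 0.213), the highest value lying in the library with the neuronal markers.

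Among the enzymes that act on elongation factors, 3 of 6 tested were higher. Eef1aknmt, which methylates eEF1A, was at 3.28, 3.32 and 3.74 against 8.34, 7.34 and 8.32 FPKM, with no overlap (2.32-fold, adjusted p 0.000621). Eef2kmt, the eEF2 lysine methyltransferase, was at 4.34, 4.04 and 5.25 against 7.16, 6.12 and 6.04 FPKM (1.418-fold, adjusted p 0.0294), and its call was lost in 9 of 19 alternatives. Eef1akmt4 was at 1.30, 1.76 and 0.715 against 2.07, 3.28 and 2.75 FPKM (2.14-fold, adjusted p 0.0347), a call lost in 5. Eef2k, the kinase that inhibits eEF2, was at 6.63, 7.89 and 7.59 against 8.01, 7.58 and 7.45 FPKM and overlapped (adjusted p 0.678). Eef1akmt1 and Eef1akmt2 were not called, with log2 fold changes of -0.01 and 0.02.

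Members whose messages are long known to begin with a terminal oligopyrimidine tract, the element through which mTORC1 controls translation, were counted separately, and the difference from the other members was not tested. Of these 9 (Eef1a1, Eef1b2, Eef1d, Eef1g, Eef2, Eif3e, Eif3f, Eif3h and Eif4b), 1 was higher, namely Eif3h (91.2, 111 and 104 against 180, 168 and 146 FPKM, 1.61-fold, adjusted p 0.00813), and none was lower, with a median log2 fold change of -0.10. Of the other 49 members tested, 30 were higher and 2 lower, with a median of 0.63. Of 5 further messages of this class, none was higher and Tpt1 was lower (662, 822 and 745 against 532, 467 and 436 FPKM, 1.55-fold lower, adjusted p 0.0155). Nap1l1 had the next smallest adjusted p, 0.0679. The class comes from background knowledge and did not show in the annotated starts. None of 9 class members and 2 of 51 other members had a GENCODE start with C and 4 more pyrimidines (4.2% of tested genes), and with RefSeq starts it was 1 of 5 and 1 of 44 (2.3%). Annotated starts need not be the starts used in the heart.

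Genes that regulate or extend these steps were counted in the same fit, in which 24.4% of all genes tested were higher and 16.0% lower. These lists are short, and their shares were not tested against all genes. Of 6 eIF2 kinases and phosphatase subunits 2 were higher. Ppp1r15a, which directs a phosphatase to eIF2 alpha, was at 8.69, 5.88 and 7.89 against 65.4, 63.4 and 73.0 FPKM (8.99-fold, adjusted p 0.000136), and Eif2ak1, the heme-regulated kinase, was 1.30-fold higher (adjusted p 0.0273). All 3 eIF4E-binding proteins, which compete with eIF4G for eIF4E, were called. Eif4ebp1 was at 71.8, 77.2 and 87.2 against 202, 207 and 186 FPKM (2.52-fold, adjusted p 0.000564), Eif4ebp3 was 1.595-fold higher, and Eif4ebp2 was 1.6-fold lower. Beside the values of Eif4e and Eif4g1, the summed level of the 3 was 97.5 to 120 FPKM in Nat10 flox/flox and 209.7 to 228 in Nat10-CKO.

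Of 14 genes of mTORC1, its inputs and its kinase targets Rps6kb1 and Rps6kb2, 10 were higher and none lower. Over all genes tested 24.4% were higher and 16.0% lower. The higher ones were Mtor, Rptor, Akt1s1, Rheb, Tsc1, Rps6kb1, Rps6kb2, Ddit4, Sesn2 and Sesn3. Among them were Tsc1, an inhibitor (1.97-fold, adjusted p 0.00116), and Rheb, the activating GTPase (1.68-fold, adjusted p 0.00171). The list mixes inhibitors with activators, so the count gives no direction for the pathway. Of 16 tested genes in a list of eIF6, poly(A) binding, termination, recycling and other factors, 9 were higher and 1 was lower. The lower one was Pdcd4, an inhibitor of eIF4A. Ddx3x, Dhx29, Abcf1 and Larp1 were among the higher ones. Pabpc1, Pabpc4, Paip1, Paip2 and Paip2b, the poly(A) binding part of the list, were not called. Abce1, the ribosome recycling factor, was 2.59-fold higher (adjusted p 0.000363), and Etf1, the release factor, 2.64-fold (adjusted p 0.000474). Enzymes that make hypusine on eIF5A and diphthamide on eEF2 were higher in 5 of 7 cases, led by Dph5 (1.67, 1.54 and 2.11 against 9.50, 9.06 and 9.29 FPKM, 5.23-fold, adjusted p 0.000170) and Dph2 (2.10-fold, adjusted p 0.000744). Of the 9 mitochondrial translation factors none was higher and Mtrf1l was lower (2.15-fold, adjusted p 0.0106). Mrrf had the next smallest adjusted p, 0.0669, and went the other way without being called (mean 12.3 against 17.2 FPKM, no overlap).

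The members were also counted by level. Of the 8 members with a mean of at least 100 FPKM in Nat10 flox/flox 2 were higher, of the 35 between 10 and 100 FPKM 20 were higher and 2 lower, and of the 15 below 10 FPKM 9 were higher. Over all genes tested 24.4% were higher, and in the fit of genes with a mean of at least 5 FPKM 2305 of 7224. All genes were not counted at the levels used for members, so a dependence on level cannot be read from these counts. The Nat10 flox/flox mean that sets the level also enters each fold change. The summed level of all 63 members was 3670 to 3918 FPKM in Nat10 flox/flox and 4777 to 5496 in Nat10-CKO. Initiation factor genes accounted for 1820 to 1944 FPKM of this in Nat10 flox/flox and 2750 to 3158 in Nat10-CKO, without overlap. Elongation factor genes summed to 1816 to 1940 and 1855 to 2297 FPKM, with overlap.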

How the data were processed

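Per the labels' protocols, poly(A) RNA was made into strand-marked libraries and sequenced as 150-base read pairs. Alignment used HISAT2 2.2.1 on GRCm39, counting used featureCounts 2.0.6, and CASAVA and DESeq2 1.42.0 are named in the submitters' processing notes; the strand setting, handling of multiply mapped reads and definition of gene length are not given in the sources used here. The authors deposited FPKM values, 1 column per library. Multiplied by gene length, 100% of values were whole multiples (within 0.01 read) of 1 read's worth, and each library's denominator matched its size factor (by median of ratios) multiplied by the geometric mean total. limma 3.58.1 in R 4.3.3 (moderated test with trend, two-sided, Benjamini-Hochberg) was run on log2(FPKM + 1) for 11996 genes with a mean of at least 1 FPKM, and calls were made at an adjusted p under 0.05. Fold changes in words are ratios of mean FPKM. The log2 fold changes understate changes of low genes. The fit was tested on simulated data. P-values measure the spread between 3 libraries per group. Same-numbered libraries were checked for shared deviations (correlations 0.06, 0.04 and 0.11) and were not treated as pairs.

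The members and lists were chosen with earlier results of these data known. Values in every library were given for up to 3 called members per complex with the smallest adjusted p, for the paralogue sets, Eif2s3x, Eef2, Eef2k and Nat10, and up to 2 genes of each other list were named by the same measure; other genes were named after their values were seen. Placing Eef1aknmt among the methyltransferases, the list of near copies and neighbours, and the printed sequences were also choices made after seeing the data. Of the promoter windows, the GENCODE set (vM39) was counted first and the RefSeq set added after its counts were known, and both are given for all 4 motifs. Mtrfr was not matched in the table. Alternatives covered the pseudocount, low-value filter, scaling, limma options, recovered reads, replicate block and leaving out libraries. The level of 1 marker gene is not reported here.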

Additional observations from a re-analysis of the deposited data

How the results depend on the processing

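The threshold was kept in 19 alternatives. Of the 33 called members, 29 kept their call in each of these in which they were tested. The other 4 lost it in at least 1: Eif1ad, Eif3m, Eef2kmt and Eef1akmt4. Eif2b3 and Eef1akmt4 were not tested with the filter at a mean of at least 5 FPKM, where 31 of the 33 kept their call. The count of higher members lay between 27 and 34 in every alternative (27 to 28 on leaving out 1 library). The count of lower members moved more, and the cause was not tested. It was 7 with quantile normalization (28 higher), 7 with array weights (32 higher), 5 after removing mitochondrially encoded genes and rescaling (28 higher), and 5 without both libraries that stood apart (29 higher), an alternative chosen after seeing the data. In each of these the elongation factor genes Eef1a2 and Eef1b2 were among the added lower members. With quantile normalization and after removing mitochondrially encoded genes, Eef1g was added too. Eif4g2, Eif4b and Eif2a were the others. At an adjusted p under 0.01 the count of lower members was 1. Leaving out 1 library gave 2 to 4, the 4 being without Nat10-CKO replicate 1, where Eef1a2 and Eef1b2 were added. Over all genes, 60.4% of calls were higher, 48.7% after removing mitochondrially encoded genes and 72.4% after bringing the protein-coding genes to equal sums, which moved the median log2 fold change of all genes from 0.03 to 0.17. With the replicate block, 28 members were higher and 2 lower; not every library correlated best with its own number. Of 963 log2 fold changes of the 51 named genes under these alternatives, 882 kept direction and side of the threshold, 42 fell below it, 22 passed it and 17 changed sign, all of members that were not called. With quantile normalization the log2 fold changes became -0.0699 for Eif1ax, -0.0242 for Eif2s3x, -0.131 for Eif4e, -0.0291 for Eif4g3 and -0.0286 for Eef2k. Without mitochondrially encoded genes they were -0.0806 for Eif4e, -0.0064 for Eif4g3 and -0.0461 for Eef2k. Array weights gave -0.0198 for Eif1ax and -0.0031 for Eif4e, and scaling by total reads, added after seeing the data, gave -0.0119 for Eif4e. Without both libraries that stood apart the values were -0.0005 for Eif1ax and -0.0372 for Eef2k. Leaving out 1 library gave -0.0592 to 0.110 for Eif4e and -0.0101 to 0.1003 for Eef2k. Equal protein-coding sums put Eef2 at 0.0583. The planned edgeR and DESeq2 fits were not run, since the deposited values are FPKM; voom with TMM factors on the recovered reads gave 30 higher and 2 lower. Both rescalings used summed FPKM as the total, chosen after seeing the data. Members near 1 FPKM rest on the fewest reads.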

Other observations

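Eif2s3y, the Y-linked copy of the eIF2 gamma gene, was left out of the members by their rule. Its mean level was 5.80 FPKM in Nat10 flox/flox and 7.22 in Nat10-CKO. In the same limma fit it was higher without overlap, just under the threshold (log2 fold change 0.27, adjusted p 0.0491). Eefsec, the elongation factor for selenocysteine, was at means of 2.37 and 2.42 FPKM.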
